A study of Mus musculus with 10 samples.

Results

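The postsynaptic density scaffold genes of the Dlg, Shank and Homer families were examined in RNA of mouse hippocampal synaptoneurosomes, a fraction enriched in pinched-off synaptic endings. They were taken by gene symbol: Dlg1, Dlg2, Dlg3 and Dlg4, Shank1, Shank2 and Shank3, and Homer1, Homer2 and Homer3. These are 10 of the 22255 genes in the deposited gene table, and 112 of the 102392 rows of the transcript table carry a GENCODE M21 transcript name of these genes. The rule used no measured value, though the members were chosen with earlier results of these data known.

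The libraries came from wild-type mice of the strain C57Bl/6J, 5 treated with vehicle and 5 treated sub-chronically with AM6545, a peripherally restricted antagonist of the CB1 cannabinoid receptor. The labels give no dose, age or sex, and do not say whether a library was made from 1 mouse or from several. The p-values therefore measure the spread between these libraries.

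The postsynaptic density is the protein layer under the membrane of an excitatory synapse, and it holds glutamate receptors in place in stacked tiers. Dlg proteins, also called membrane-associated guanylate kinases or MAGUKs, lie nearest the membrane and bind receptor tails; Dlg4 is PSD-95, Dlg1 is SAP97, Dlg2 is PSD-93 and Dlg3 is SAP102. Shank proteins form the deeper tier, linked to the Dlg tier through Dlgap proteins, and Homer proteins join Shank to group I metabotropic glutamate receptors. Long Homer proteins carry a coiled coil through which they assemble, whereas Homer1a, a short product of Homer1 induced by neuronal activity, lacks it and uncouples the others.

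Of the 10 scaffold genes, 0 passed an adjusted p of 0.05 for AM6545 against vehicle in edgeR's quasi-likelihood test. The same held for all 14358 genes tested, of which 0% passed. Estimated log2 fold changes ran from -0.17 for Homer2 to 0.17 for Dlg3, with 5 genes above 0 and 5 below. All 10 of the 95% intervals lay inside a 1.5-fold change in either direction. The share of Homer1 made up by short forms was 19.4% ± 1.21 (SD, n = 5) with vehicle and 18.4% ± 1.66 (SD, n = 5) with AM6545.

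The Homer1 messages take different paths after the fifth exon (chr13:93355940-93356079 in GENCODE M21, build GRCm38). The next lines show the last bases of that exon in lower case and what follows it in each transcript in capitals, because the coding ends of the short forms lie here. The short Homer1-207 and the long Homer1-203 share this junction and part only at the end of the next 36 bases. For Homer1-204 and Homer1-207 the capitals run to the end of the stop codon, and for Homer1-203 and Homer1-202 they are the first bases of the long continuation.

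Homer1-204: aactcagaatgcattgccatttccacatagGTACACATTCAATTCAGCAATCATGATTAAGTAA
Homer1-207: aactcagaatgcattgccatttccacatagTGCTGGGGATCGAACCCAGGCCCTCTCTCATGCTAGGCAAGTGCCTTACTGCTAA
Homer1-203: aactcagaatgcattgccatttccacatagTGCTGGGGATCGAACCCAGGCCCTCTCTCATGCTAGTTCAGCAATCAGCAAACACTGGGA
Homer1-202: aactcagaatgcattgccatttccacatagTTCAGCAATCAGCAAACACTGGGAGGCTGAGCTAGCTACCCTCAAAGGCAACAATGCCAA

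Homer1-204 read straight on into intron 5 of the long form, a 31444-base interval at chr13:93356080-93387523, and its coding sequence ended after 186 codons. Homer1-207 took the 36-base exon at chr13:93386345-93386380 that Homer1-203 also carries, read past its end and stopped after 193 codons. The long forms Homer1-203 and Homer1-202 had 366 and 370 codons. Homer1-202 lacked the 36-base exon.

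An optional block also separates the major Homer2 and Dlg3 messages. The block absent from the other transcript is in capitals below, between flanking coding bases in lower case. Homer2-206 differs from Homer2-201 by 33 bases at chr7:81618683-81618715 on the minus strand. Dlg3-202 differs from Dlg3-201 by blocks of 54 bases at chrX:100771307-100771360 and 42 bases at chrX:100811502-100811543.

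Homer2-206: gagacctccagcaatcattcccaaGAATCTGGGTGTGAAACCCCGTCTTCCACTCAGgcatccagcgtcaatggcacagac
Dlg3-202 first block: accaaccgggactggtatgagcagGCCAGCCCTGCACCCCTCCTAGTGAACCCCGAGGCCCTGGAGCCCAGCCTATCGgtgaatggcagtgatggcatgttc
Dlg3-202 second block: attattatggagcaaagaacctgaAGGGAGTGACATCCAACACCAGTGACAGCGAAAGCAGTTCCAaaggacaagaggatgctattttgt

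The families differ in how alike their members are. Translated from the annotated coding sequences of the reference, the 4 Dlg proteins were identical at 69.2% to 77.6% of aligned positions, with Dlg1 and Dlg2 the closest pair. Homer proteins shared 47.4% to 53.1% and Shank proteins 47.6% to 49.4%. Shank1-203 encodes 2167 codons, Shank3-203 1805 and Shank2-202 1472. The Dlg coding sequences are shorter, from 724 codons in Dlg4-203 to 905 in Dlg1-203. Apart from the 36-base exon of Homer1-203, the internal exons of Homer1-203 and Homer2-206 have the same lengths in the same order: 157, 132, 93, 140, 157, 111 and 81 bases.

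The gene table held 18106112 to 25899794 estimated counts per library, and the scaffold genes themselves held 207 to 3733 counts in a library. Of 14358 genes tested, 0% passed an adjusted p of 0.05, 1.88% had an unadjusted p under 0.05, and 0.293% had AM6545 and vehicle libraries that did not overlap. Of the 10 scaffold genes, all 10 were tested and 0 met any of these 3 criteria. DESeq2 and limma-voom with sample quality weights, named limma-voom below, also called 0 of the 10. The unadjusted p-values ran from 0.156 to 0.911 and every Benjamini-Hochberg adjusted p in edgeR was 0.9998. Their median log2 fold change was 0.0024, beside -0.0057 over all tested genes.

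Markers of neurons and of other cell types were both measured in these libraries. Summed markers of excitatory neurons were 1440 to 2069 CPM (counts relative to library size, scaled by TMM) with vehicle and 1687 to 2024 with AM6545. Oligodendrocyte markers reached 28202 CPM and choroid plexus and ependyma markers ran from 59.9 to 4944. No listed marker was at 0 in all libraries. In such bulk RNA, fewer cells or endings of a type and less RNA in each cannot be told apart.

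Dlg3, which encodes the MAGUK prominent early in synapse development, had the highest estimated change upward. In the vehicle libraries, replicates 1 to 5, it stood at 78.7, 104, 80.9, 99.9 and 97.3 CPM. With AM6545 it stood at 107, 122, 83.7, 100.4 and 106 CPM. AM6545 replicates 1, 2 and 5 were above every vehicle library, and replicate 3 lay among the lower vehicle values, so the groups overlapped. The log2 fold change was 0.17 (SE 0.114, 95% interval -0.07 to 0.41, edgeR unadjusted p = 0.156). It was 0.11 without AM6545 replicate 2 and 0.24 without AM6545 replicate 3, where the unadjusted p was 0.0454 and the adjusted p 0.988 in edgeR.

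Dlg4, the PSD-95 gene, was at 20.6, 26.5, 27.4, 23.7 and 24.7 CPM in the vehicle libraries. The AM6545 libraries held 25.5, 25.3, 26.2, 28.9 and 27.2 CPM. All 5 AM6545 values were above the vehicle mean of 24.6 CPM, but replicate 4 alone exceeded the highest vehicle library. The estimated log2 fold change was 0.11 (SE 0.0995, 95% interval -0.10 to 0.33, edgeR unadjusted p = 0.265), and 0.058 without vehicle replicate 1.

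Dlg1 and Dlg2 showed smaller differences between the groups. Dlg1, whose protein SAP97 binds the AMPA receptor subunit GluA1, averaged 49.2 ± 7.33 CPM (SD, n = 5) with vehicle and 51.3 ± 3.06 (SD, n = 5) with AM6545, a log2 fold change of 0.06 (SE 0.108). Dlg2 averaged 43.4 ± 6.11 CPM (SD, n = 5) and 43.9 ± 3.85 (SD, n = 5), a log2 fold change of 0.02 (SE 0.108). In both genes vehicle replicate 1 was the lowest and vehicle replicate 2 the highest of the 10 libraries.

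**Figure D1:**
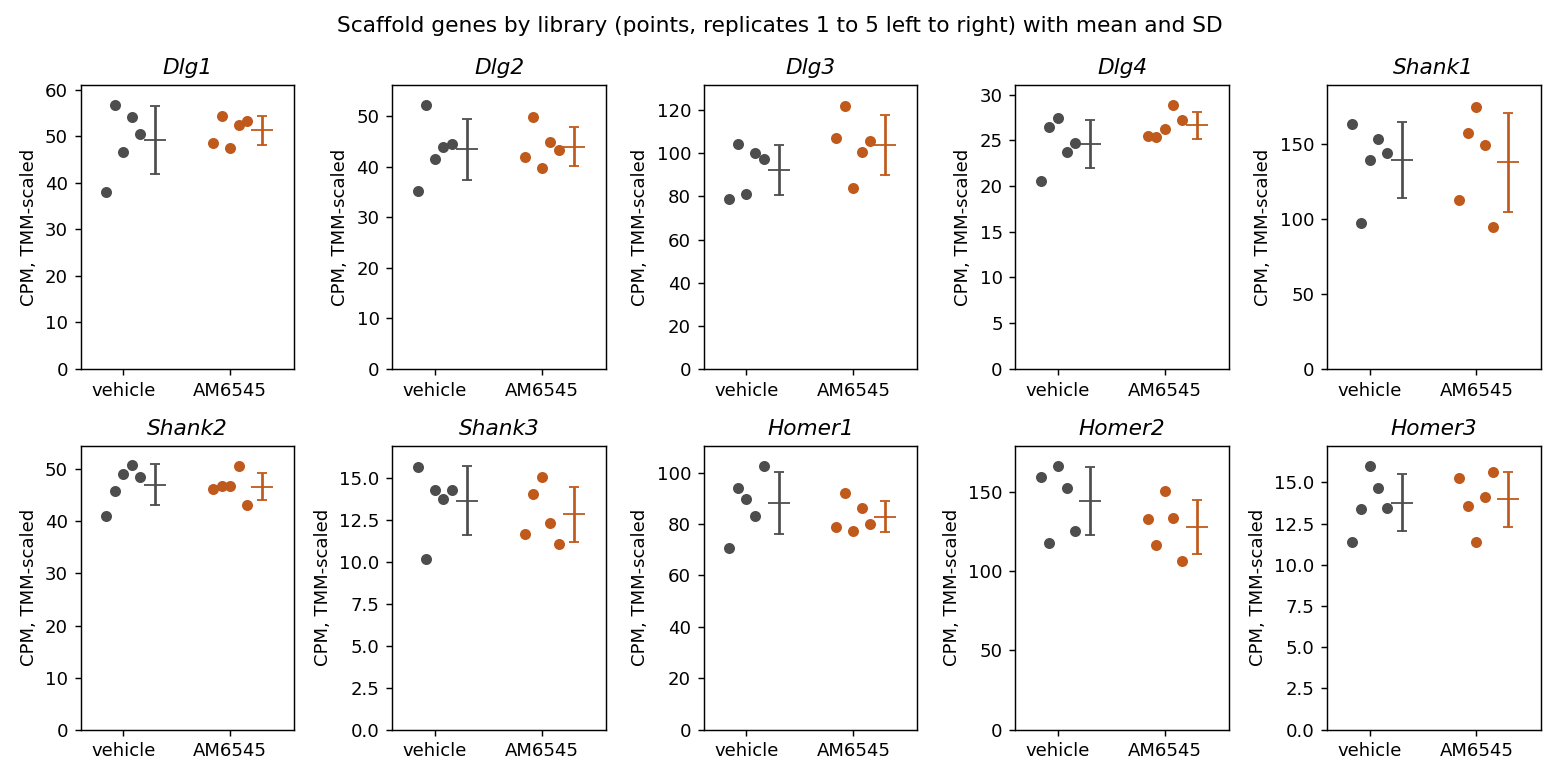
Scaffold gene levels by library. Each panel plots TMM-scaled CPM of 1 gene, with 1 point per library in replicate order and a bar for the mean and SD of the 5 libraries. The 2 groups overlap in all 10 panels, and vehicle replicate 1 is the lowest point for 7 genes.

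Among the Shank genes, Shank1 had the widest spread between libraries. Its vehicle libraries held 163, 96.9, 139, 153 and 144 CPM, and its AM6545 libraries 112, 157, 174, 149 and 94.7 CPM. The low values were vehicle replicate 2 and AM6545 replicates 1 and 5, and the highest was AM6545 replicate 3. Its coefficient of variation over the 10 libraries was 20.1%, the highest of the 10 genes, and its log2 fold change was -0.02 (SE 0.163, 95% interval -0.36 to 0.33).

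Shank2 had the lowest coefficient of variation, 6.70%, with 47.1 ± 3.87 CPM (SD, n = 5) for vehicle and 46.7 ± 2.67 (SD, n = 5) for AM6545. Its log2 fold change of -0.01 (SE 0.091) carried the narrowest interval, -0.20 to 0.18. Shank3, mutated in Phelan-McDermid syndrome, was at 13.6 ± 2.06 CPM (SD, n = 5) and 12.8 ± 1.66 (SD, n = 5), with a log2 fold change of -0.09 (SE 0.130). Like Shank1, Shank3 was lowest in vehicle replicate 2 and AM6545 replicate 5.

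Homer2 had the lowest estimated log2 fold change of the 10 genes. Its vehicle libraries held 159, 117, 166, 152 and 125 CPM. Its AM6545 libraries held 133, 116, 150.4, 134 and 106 CPM. AM6545 replicates 2 and 5 were below every vehicle library, and the other 3 lay inside the vehicle range. The log2 fold change was -0.17 (SE 0.120, 95% interval -0.43 to 0.08, edgeR unadjusted p = 0.174).

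Homer1 was at 70.5, 94.2, 89.9, 83.0 and 103 CPM with vehicle. With AM6545 it was at 78.7, 92.1, 77.3, 86.1 and 80.2 CPM. Every AM6545 value lay inside the vehicle range, and the log2 fold change was -0.09 (SE 0.106, 95% interval -0.31 to 0.14). Homer3, a long-form Homer strongly expressed in cerebellar Purkinje cells, was at 13.8 ± 1.73 CPM (SD, n = 5) with vehicle and 14.0 ± 1.67 (SD, n = 5) with AM6545, a log2 fold change of 0.02 (SE 0.121).

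**Figure D2:**
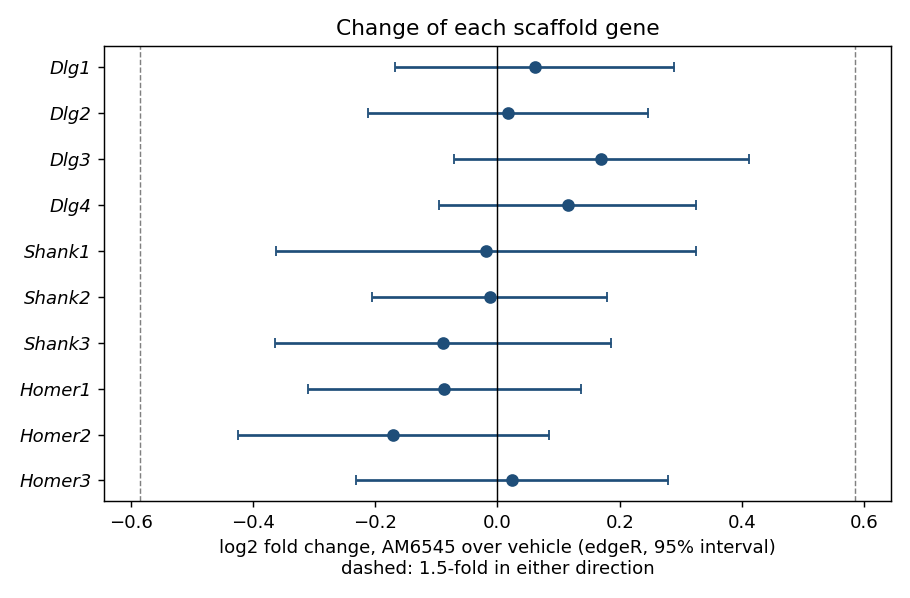
Estimated change of each scaffold gene. Points are edgeR log2 fold changes of AM6545 over vehicle, horizontal bars their 95% intervals, and dashed lines a 1.5-fold change either way. All 10 bars cross 0 and stay between the dashed lines; Dlg3 (0.17) lies farthest right and Homer2 (-0.17) farthest left.

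Levels of different genes were compared per length. The gene's estimated count was divided by the mean length of its transcripts matched to GENCODE M21, weighted by their per-length amounts. These values were scaled so that the 18663 genes with such a length sum to the same total in every library. Homer2 had the highest level, with a mean of 123 per-length units, followed by Homer1 at 45.8, Dlg3 at 42.5, Shank1 at 27.7 and Dlg1 at 25.7. Homer3 stood at 19.9, Dlg2 at 14.5, Dlg4 at 12.7, Shank2 at 11.3 and Shank3 at 5.90. Only the first and the last steps in this order had ranges that did not touch: Homer2 was 2.08 to 3.84 times Homer1, and Shank2 was 1.41 to 2.42 times Shank3 in the same library. Homer1 exceeded Dlg3 in 7 of 10 libraries, Shank1 exceeded Dlg1 in 7 of 10 and Dlg4 exceeded Shank2 in 9 of 10, so these neighbours were not separated by their spread. The remaining 4 steps kept their direction in 10 of 10 libraries, with ranges that overlapped.

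**Figure D3:**
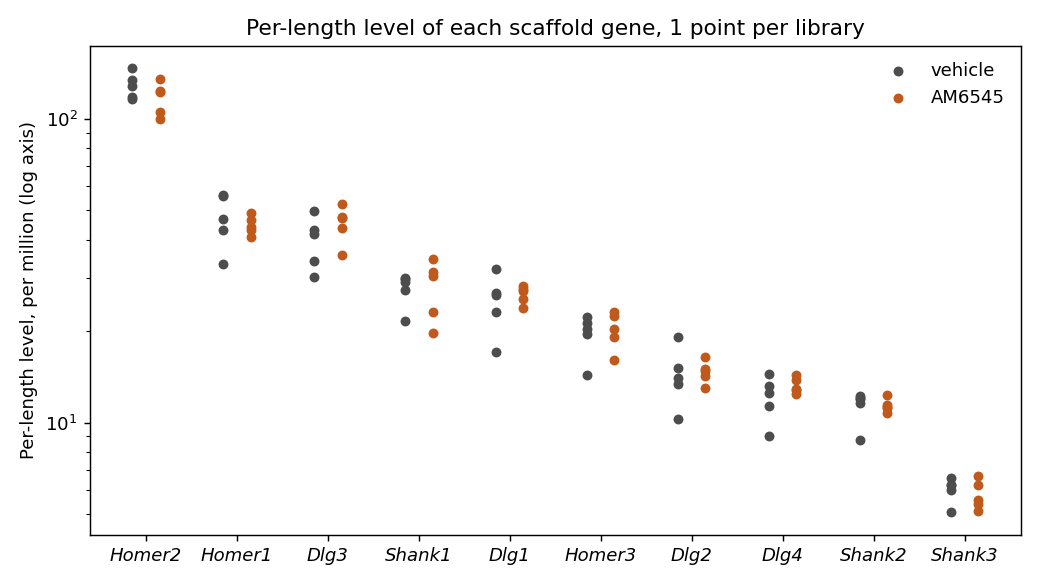
Per-length level of the 10 scaffold genes in every library, on a log axis, with vehicle and AM6545 points side by side. Homer2 lies above all other genes, near 123, and Shank3 below all others, near 5.90.

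Several of these levels depend on the gene models. Only 22.1% of the Shank3 counts lay in transcripts matched to GENCODE M21, against 88.5% for Dlg2, 98.9% for Shank2 and 100% for the other 7 genes. The most abundant Homer3 transcript per length was Homer3-207, an 852-base model with a retained intron that took 61.1% of the gene's level and shortened the mean length used. In GENCODE M21, exons of Shank1, Shank3, Homer2 and Homer3 overlap a gene on the opposite strand (1700008O03Rik, Gm15609, Gm44570 and Ddx49), and Dlg2 overlaps Gm45131 and Gm45159 on the same strand. Whether counting used strand is not given in the sources used here, so reads of these overlapping genes cannot be told apart.

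The genes lie apart in the genome, on 7 chromosomes. In GENCODE M21 (GRCm38) Dlg1 spans chr16:31663443-31875129, Dlg2 chr7:90476672-92449247, Dlg3 chrX:100767722-100818410 and Dlg4 chr11:70016942-70047522. Shank1 spans chr7:44310253-44360572, Shank2 chr7:144001928-144424494 and Shank3 chr15:89499623-89560261. Homer1 spans chr13:93299635-93405129, Homer2 chr7:81600481-81707527 on the minus strand and Homer3 chr8:70282827-70294361.

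At the transcript level, 84 of the 112 scaffold transcripts had an estimated count above 0 in at least 1 library. Of these, 35 had enough counts to be tested. Over all 31848 transcripts tested, 0.00314% passed an adjusted p of 0.05, 1.97% had an unadjusted p under 0.05 and 0.575% had groups that did not overlap. Of the 35 scaffold transcripts, 0 met any of these criteria, and the smallest adjusted p in edgeR was 0.9999. Their median standard error was 0.24 on the log2 scale, so differences of a transcript were measured less closely than those of a gene, where standard errors ran from 0.091 to 0.163. Transcript estimates divide reads shared between overlapping models of a gene.

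For Homer1, 4 coding transcripts were short and 7 long, with 1 noncoding. The short-form share, the per-length amount of short transcripts among all coding Homer1, was 19.8%, 20.8%, 18.0%, 18.4% and 20.2% in vehicle replicates 1 to 5. It was 17.9%, 21.2%, 18.5%, 17.5% and 16.9% in AM6545 replicates 1 to 5. AM6545 replicates 1, 4 and 5 lay below every vehicle library and AM6545 replicate 2 above every one. The difference of -1.05 percentage points had p = 0.294 in a two-sided exact permutation test, whose smallest possible p is 0.00794. Without AM6545 replicate 2 the difference was -1.74 points (exact permutation p = 0.0635), and without AM6545 replicate 5 it was -0.67. With only the most abundant short and long transcript, Homer1-204 and Homer1-203, it was -4.51 points (exact permutation p = 0.206).

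Summed short forms were at 17.6, 22.0, 18.3, 17.5 and 21.8 CPM with vehicle and at 16.0, 23.5, 15.8, 15.2 and 13.9 CPM with AM6545. Here 4 of 5 AM6545 libraries were below every vehicle library, while AM6545 replicate 2 was the highest of all. The same library was the highest of the 10 for 6 of 12 immediate early genes: Arc (124 CPM), Egr1 (236), Egr2 (5.63), Egr4 (35.6), Fos (31.3) and Nr4a1 (37.5). Btg2 was at its lowest in that library, at 26.5 CPM. Vehicle replicate 1, with short forms at 17.6 CPM, was the highest for 4 of the 12: Dusp1, Fosb, Ier2 and Junb. Vehicle replicate 2 was the highest for Btg2 and vehicle replicate 5 for Npas4. The part of these genes in the short-form values was not tested. Summed long forms averaged 69.0 ± 10.4 CPM (SD, n = 5) with vehicle and 66.3 ± 3.81 (SD, n = 5) with AM6545. Per length, long forms were 3.72 to 4.93 times as abundant as short forms in every library.

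The most abundant short transcript, Homer1-204, showed the same arrangement. It was at 15.8, 14.6, 13.1, 12.2 and 14.2 CPM in vehicle libraries and at 10.8, 18.7, 10.2, 7.85 and 7.26 CPM in AM6545 libraries. Replicate 2 of AM6545 was again the highest value, and the other 4 were below every vehicle library. Its log2 fold change was -0.35 (SE 0.241, edgeR unadjusted p = 0.180). Without AM6545 replicate 2 it was -0.63, with an unadjusted p of 0.00254 in edgeR and an adjusted p of 0.9999. The other main short transcript, Homer1-207, had an estimate of the opposite sign, 0.19 (SE 0.396, edgeR unadjusted p = 0.645), from 4.47 ± 2.16 CPM (SD, n = 5) with vehicle to 5.09 ± 1.08 (SD, n = 5) with AM6545. It made up 40.5% ± 15.4 (SD, n = 5) of Homer1-204 and Homer1-207 together with vehicle, with replicate 1 at 13.7%, and 52.8% ± 13.2 (SD, n = 5) with AM6545.

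Among the long forms, Homer1-203 took 48.4% of the gene's per-length amount and averaged 34.6 ± 8.07 CPM (SD, n = 5) with vehicle and 35.8 ± 3.39 (SD, n = 5) with AM6545. Homer1-202 was at 33.7 ± 4.71 CPM (SD, n = 5) with vehicle and 28.5 ± 3.21 (SD, n = 5) with AM6545, with 3 AM6545 libraries below every vehicle library. Its log2 fold change of -0.24 (SE 0.116) had an unadjusted p of 0.0653 in edgeR. Homer1-203, with the 36-base exon, made up 57.6% ± 5.90 (SD, n = 5) of Homer1-201, Homer1-202 and Homer1-203 together with vehicle and 61.4% ± 3.97 (SD, n = 5) with AM6545.

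**Figure D4:**
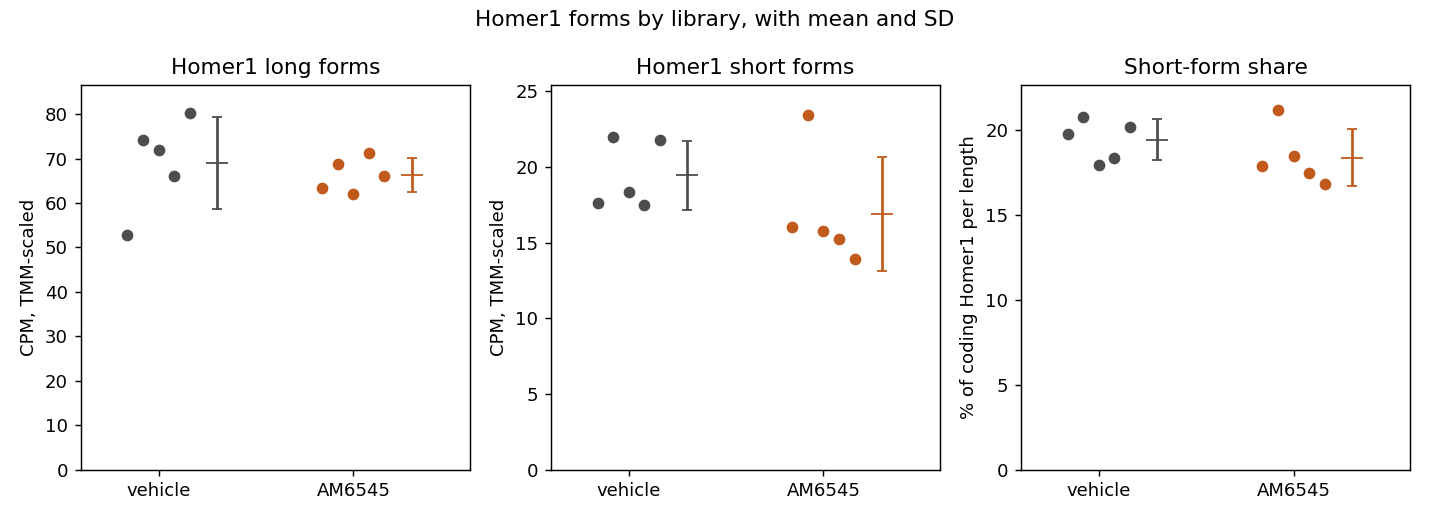
Homer1 forms by library. The panels plot summed long-form CPM, summed short-form CPM and the short-form share in percent, with 1 point per library in replicate order and the mean and SD of each group. In the short-form panel 4 AM6545 points lie below all vehicle points and 1, at 23.5, lies above them.

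Homer2-206, the Homer2 message with the 33-base block, had the smallest p-value of the 35 scaffold transcripts. It was at 44.7, 39.4, 51.5, 51.5 and 38.1 CPM with vehicle and at 42.2, 35.4, 40.03, 38.5 and 28.2 CPM with AM6545. AM6545 replicates 2 and 5 were below every vehicle library, and the other 3 were inside the vehicle range. The log2 fold change was -0.29 (SE 0.132, edgeR unadjusted p = 0.0531). Relative to Homer2-201, which lacks the block, Homer2-206 made up 42.3% ± 3.34 (SD, n = 5) of the pair with vehicle and 40.3% ± 3.82 (SD, n = 5) with AM6545.

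For Dlg3, the noncoding transcript Dlg3-208 was at 49.4 CPM in vehicle replicate 1 and between 16.1 and 21.5 CPM in the other 4 vehicle libraries. AM6545 libraries held 20.9, 29.9, 18.8, 13.3 and 11.01 CPM. The log2 fold change was -0.38 (SE 0.373, edgeR unadjusted p = 0.332), and without vehicle replicate 1 it was 0.043. The coding message Dlg3-202, with both optional blocks, was lowest in the same vehicle library, at 10.5 CPM against 26.6 to 41.0 in the other 4 vehicle libraries. Its share of the 3 coding transcripts Dlg3-201, Dlg3-202 and Dlg3-204 was 44.8% ± 4.17 (SD, n = 5) with vehicle and 44.9% ± 6.84 (SD, n = 5) with AM6545.

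Dlg3-206, a rare transcript with a retained intron, had the highest estimated change of the scaffold transcripts, 0.79 (SE 0.788, edgeR unadjusted p = 0.342). It was at 0 in vehicle replicate 2 and at most 2.13 CPM elsewhere. Its estimate was 0.46 without vehicle replicate 2 and 1.35 by limma-voom. The most abundant matched transcripts of the remaining genes had log2 fold changes of 0.09 for Dlg1-203, 0.22 for Dlg2-204, 0.17 for Dlg4-203, -0.02 for Shank1-203, -0.10 for Shank2-202 and 0.06 for Shank3-203. Shank3-203 leads only among the matched transcripts, which hold 22.1% of the gene's counts. Without vehicle replicate 1 the estimates of Dlg2-204 and Dlg4-203 were 0.088 and 0.057. For Homer2-201 and Homer3-207 they were -0.17 and -0.03, and without vehicle replicate 1 the estimate of Homer2-201 was -0.086. Single transcripts dominated Shank1 (Shank1-203, 96.8% per length) and Dlg4 (Dlg4-203, 78.6%).

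One vehicle library stood apart for the scaffold genes as a group. Vehicle replicate 1 had the lowest value of all 10 libraries for Dlg1, Dlg2, Dlg3, Dlg4, Shank2, Homer1 and Homer3, and the highest for Shank3. Its median deviation from each gene's own median was -0.27 on the log2 scale, against -0.06 to 0.06 in the other 9 libraries. In the same library the summed excitatory neuron markers were lowest, at 1440 CPM against 1687 to 2069 elsewhere. Choroid plexus markers were highest there, at 4944 CPM against 59.9 to 3948. Summed interneuron markers went the other way from the excitatory list, at 866 CPM, the highest vehicle value. They ran from 638 CPM upward with vehicle and from 650 to 898 with AM6545. The part of these markers in the low values was not tested. Without this library the estimated log2 fold changes of Dlg1, Dlg2 and Homer3 were -0.019, -0.0498 and -0.037, and that of Shank1 was 0.045, each on the other side of 0 from its estimate over all libraries.

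**Figure D5:**
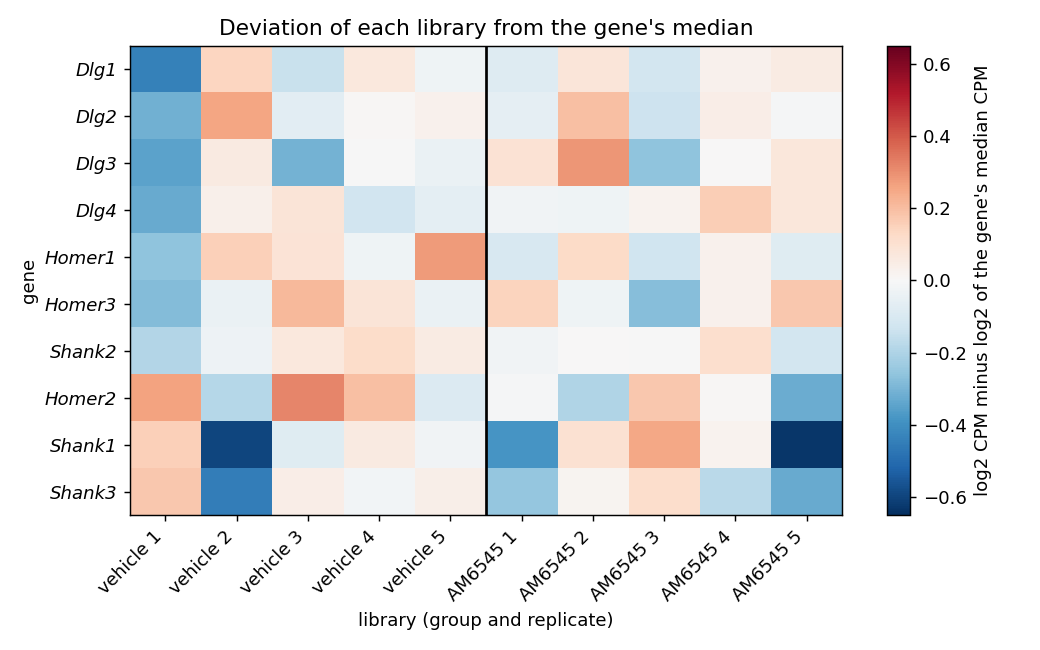
Deviation of each library from the gene's median over 10 libraries. Colour gives log2 CPM minus log2 of the gene's median CPM, from blue (below) to red (above), with genes in rows and libraries in columns, and a line between vehicle and AM6545. The vehicle 1 column is blue for 7 genes and red for Homer2, Shank1 and Shank3; Shank1 and Shank3 are both dark blue in vehicle 2.

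Across the 10 libraries, 45 pairs of scaffold genes were compared by log2 CPM, with 100000 permutations each. The correlation was positive in 27 pairs and negative in 18. After Benjamini-Hochberg adjustment over the 45 pairs, 2 had an adjusted permutation p under 0.05 for Pearson's r. How often pairs of other genes reach such values was not computed, so the 2 pairs are not shown to be particular to these families.

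Dlg1 and Dlg2 varied together, with r = 0.904 (permutation p = 5.0e-05, adjusted 0.00225) and Spearman's rho = 0.89 (permutation p = 0.00109, adjusted 0.0490). Leaving out the 2 libraries farthest from the median of Dlg1, vehicle replicates 1 and 3, r was 0.853. With each group's mean removed it was 0.913.

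Shank1 and Shank3 had r = 0.907 (permutation p = 0.00052, adjusted 0.0117), and rho = 0.78 (permutation p = 0.0106, adjusted 0.119), which did not pass. Without AM6545 replicate 5 and vehicle replicate 2, the 2 libraries farthest from the median of Shank1, r was 0.767. Shank2 was lowest in vehicle replicate 1, at 41.0 CPM. In the low libraries of this pair it held 45.8 CPM (vehicle replicate 2) and 43.1 CPM (AM6545 replicate 5, its lowest AM6545 value).

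The most negative pair was Dlg3 and Homer2, the 2 genes at the ends of the fold change order. Their r was -0.804 (permutation p = 0.00585, adjusted 0.0658), their rho -0.81 (adjusted permutation p = 0.119), and r was -0.629 without the 2 libraries farthest from the median of Dlg3. After adjustment this pair did not pass.

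The genes around the scaffolds were followed in 5 lists with 54 distinct genes, and all 54 were tested. Of these, 0 passed an adjusted p of 0.05 in edgeR and 0 had an unadjusted p under 0.05, beside 1.88% of all genes. The 20 partners of the Dlg proteins had a median log2 fold change of 0.01, with 11 above 0. Dlgap1, which links Dlg to Shank proteins, was at 414 ± 57.7 CPM (SD, n = 5) with vehicle and 428 ± 17.2 (SD, n = 5) with AM6545.

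The 7 Shank partners had a median log2 fold change of -0.007 and the 7 Homer partners of -0.04. Grm5, the metabotropic receptor mGluR5 that Homer proteins bind, was at 159 ± 20.8 CPM (SD, n = 5) with vehicle and 163 ± 22.2 (SD, n = 5) with AM6545, a log2 fold change of 0.04 (SE 0.117). The 8 other MAGUK genes had a median of 0.08, with 6 above 0. Among 12 immediate early genes, the class to which Homer1a belongs, the median was -0.07, with 5 above 0. Arc, an immediate early gene whose product acts at the postsynapse, was at 89.8 ± 18.9 CPM (SD, n = 5) with vehicle and 100.03 ± 18.2 (SD, n = 5) with AM6545, a log2 fold change of 0.16 (SE 0.149).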

How the data were processed

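The authors deposited estimated counts per gene and per transcript for 10 libraries, quantified with Salmon 1.5.2 on mm10, per the submitters' processing notes; the annotation release is not given in the sources used here. Per the labels' protocols, total RNA was turned into libraries with SMARTer Ultra Low Input reagents. Symbols, transcript names, lengths and coordinates came from GENCODE M21 by identifier without version; 0 of the 10 scaffold gene identifiers carried the same version there, so gene models may differ from those counted.

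Estimated counts were rounded and fitted over the whole table with edgeR 4.0.16 in R 4.3.3 (TMM, filterByExpr with minimum count 10 and minimum total 15, group alone, robust quasi-likelihood test, Benjamini-Hochberg threshold 0.05, two-sided). CPM were scaled by TMM, and log2 CPM used a prior count of 2. Homer1 transcripts were called short where their coding sequence ended inside intron 5. Depth limits precision: the counts and standard errors given are for 18106112 to 25899794 counts per library. Scripts were checked on simulated data. DESeq2 1.42.0 and limma 3.58.1 (limma-voom with sample quality weights) served as alternatives. Other scalings and filters, a replicate block and leaving out each library were also run. Python 3.11.15 with scipy 1.17.1 gave the permutation tests.

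All scaffold genes were named, with the most abundant transcript of each, the leading Homer1 forms, the 4 other scaffold transcripts of smallest p, and Dlgap1, Grm5 and Arc; 1 further gene under this rule is not reported here. Homer1-201, Homer1-207, Dlg3-201, Dlg3-204 and Homer3-203 were named for their structure or after their values were seen. Immediate early genes other than Arc were named outside this rule, after their values were seen, for the library in which each was highest. The members and lists were chosen with earlier results of these data known.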

Additional observations from a re-analysis of the deposited data

Results flagged for a closer look

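In groups of 5 libraries, the highest or lowest value was compared with its nearest neighbour relative to the group's range, for 52 groups of values. By chance about 1 in 20 such groups stands out, or 2.6 of 52, and 2 did. In the vehicle group, Dlg3-208 was at 49.4 CPM in replicate 1, while its 4 other values lay between 16.1 and 21.5. In the AM6545 group, Dlg3-206 was at 0.839 CPM in replicate 5, while its 4 other values lay between 2.001 and 2.13.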

How the results depend on the processing

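No scaffold gene and no scaffold transcript passed an adjusted p of 0.05 under any alternative run: other scalings, DESeq2, limma-voom, other filters, the replicate block, or leaving out any library. Over all genes the count was 0, with 1 by limma-voom and 0 to 1 when each library was left out (1 without replicate 3 of either group). Over all transcripts it was 1, with 11 by DESeq2, 0 by limma-voom, 2 with no filter, 0 with at least 10 counts in every library, 0 with the replicate block, and 0 to 4 when each library was left out (4 without AM6545 replicate 3, 2 without replicate 2 of either group, 0 without any of the other 7). The cause was not tested. Dlg2 was -0.0024 by limma-voom. Leaving out each library, log2 fold changes ran from -0.019 to 0.12 for Dlg1, -0.0498 to 0.092 for Dlg2, -0.12 to 0.0896 for Shank1, -0.058 to 0.017 for Shank2 and -0.037 to 0.088 for Homer3. With no change of sign they ran from 0.11 to 0.24 for Dlg3, 0.058 to 0.16 for Dlg4, -0.18 to -0.035 for Shank3, -0.16 to -0.026 for Homer1 and -0.24 to -0.11 for Homer2. For transcripts they ran from -0.014 to 0.27 for Dlg1-203, -0.083 to 0.12 for Homer1-203, -0.16 to 0.056 for Homer3-207, -0.12 to 0.088 for Shank1-203, -0.051 to 0.20 for Shank3-203 and -0.61 to 0.043 for Dlg3-208, and with no change of sign from 0.46 to 1.001 for Dlg3-206, 0.088 to 0.35 for Dlg2-204, 0.057 to 0.26 for Dlg4-203, -0.28 to -0.086 for Homer2-201, -0.16 to -0.0397 for Shank2-202, -0.63 to -0.24 for Homer1-204, -0.30 to -0.15 for Homer1-202 and -0.35 to -0.21 for Homer2-206. The Homer1 short-form difference stayed below 0 in every alternative. The replicate block could not move this difference, since the mean of paired differences equals the difference of means. It ran from -4.51 points with only the most abundant short and long transcript, a share of those alone, to -0.67 without AM6545 replicate 5. Its exact permutation p ran from 0.0635 without AM6545 replicate 2 to 0.540.

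Whether equal replicate numbers mark paired libraries was not tested, and 5 pairs are too few to decide it. Same-numbered deviations correlated from -0.19 to 0.39, with 2 of 5 over 0.1 and 3 of 5 highest with their own number. With the replicate block, 0 genes and 0 transcripts were called, and the Homer1 difference was -1.05 points with an exact sign-flip p of 0.25, where 0.0625 is the smallest possible. Changes smaller than the intervals given were not detectable with these libraries.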

Other observations

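Cdc42bpg, Calcrl and Setdb2 were the genes whose log2 CPM varied most like that of Dlg4 over the 10 libraries after removal of the group means, with r of 0.982, 0.966 and 0.966. For the summed short forms of Homer1 they were Fnip1, Fam160b1 and Heatr1, with r of 0.971, 0.938 and 0.937. These are the highest of 14358 tested genes, and all values come from the same libraries. Cdc42bpg was at a low level, from 0.291 to 0.726 CPM. Dlg4 was lowest in vehicle replicate 1, and the summed short forms of Homer1 were highest in AM6545 replicate 2. No r without these libraries is given, so how far each r rests on 1 library was not tested.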
